A study of Mus musculus with 12 samples.

Results

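The complement system was followed through 9 genes, C1qa, C1qb, C1qc, C3, C4b, C3ar1, C5ar1, Itgam, and Serping1, in the brains of mice used as models of Alzheimer's disease (AD). The genes were chosen by name, as the components and receptors of complement best known in brain tissue, and each array probe was assigned to them through its transcript accession. All 9 had a probe, 13 probes in all, out of 20882 named genes on the array. Serping1 and C3 were covered by 2 probes each, Itgam by 3, and the other 6 genes by 1.

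Gene expression was measured on 12 one-colour mouse arrays, 1 array for each model. The RNA on an array came from a pool of 3 animals, which hides the spread between animals, and no model had a second array, so differences are given without tests. The first set was prefrontal cortex of C57BL/6 mice aged 1.5, 4, 17, and 22 months, male per the methods. The second set was hippocampus of transgenic mice, labelled C57BL/6 (the methods name C57BL/6N as the background of the NCSTN and 5xFAD mice), which overexpressed mutated human NCSTN (10 months old), wild-type human MAPT (12 months old), or, in 5xFAD mice (6 months old), human transgenes with mutations of familial AD, APP among them. NCSTN is a subunit of the γ-secretase complex, MAPT is tau, and the 5xFAD transgenes are driven by the Thy1 promoter in neurons, whereas the promoters of the NCSTN and MAPT transgenes are not given in the sources used here. The third set was hippocampus of male ICR mice aged 7 weeks. These mice had received aggregated Aβ1-42, at 5 or 10 µM, or streptozotocin, at a dose of either 2.5 or 3 mg/kg, in the cerebral ventricles 14 days before dissection, or scopolamine (1 mg/kg), a muscarinic antagonist, was given intraperitoneally 30 minutes before it. Untreated or wild-type controls for the transgenic and injected sets were not analysed here. Genes were called higher or lower only between arrays of the same set. Transgene and age cannot be told apart in the transgenic set, nor can region, strain, and age between sets.

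Complement is a cascade of serum and tissue proteins that tags debris, microbes, and, in the brain, synapses for removal. C1q, assembled from the products of C1qa, C1qb, and C1qc, binds the target and starts the classical pathway, in which C4 and then C3 are cleaved and deposited. The fragments released from C3 and C5 are read by the receptors C3AR1 and C5AR1, the deposited C3 fragment is bound by the integrin CR3 (whose α chain, CD11b, is the product of Itgam), and the C1 inhibitor encoded by Serping1 blocks the proteases that C1q activates. In brain, C1q, C3AR1, and CR3 are made mainly by microglia, while C4 and C3 are also made by astrocytes.

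Values are log2 of the scanner's processed signal after quantile normalization over the 12 arrays. A gene was called higher or lower in a comparison when the difference was at least 2-fold and the scanner had marked the brighter side as well above background on all its arrays. Because these are whole-tissue samples, fewer cells of a type and less RNA per cell cannot be told apart. The precision within an array could be read from repeated spots. The probe for C1qc and 1 of those for C3 were each printed 10 times, and the SD between their spots was 0.0305 to 0.0644 for C1qc and 0.0302 to 0.232 for C3 on the log2 scale. These values cover printing and scanning error, not differences between animals.

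Several arrays stood apart in ways that bear on the comparisons. The 5xFAD array had the largest share of probes well above background, 75.9%, against 63.6% to 72.3% on the other arrays. Markers of choroid plexus, the secretory tissue that projects into the ventricles, averaged 8.50 on the log2 scale at 17 months against 4.80 to 5.59 at the other ages, and 6.79 and 7.23 on the streptozotocin arrays against 11.57 to 11.92 on the other ICR arrays. Meningeal and perivascular fibroblast markers, such as Dcn and Col1a2, averaged 11.84 and 11.44 on the Aβ arrays and 8.52 to 10.06 on the other ICR arrays. The transgenic animals were male per the methods, but Xist was well above background on those 3 arrays and on none of the other 9, and Ddx3y and Eif2s3y were well above background on the other 9 and on none of these 3. As lists, the markers of region followed the labels: those of cortical neurons averaged 9.68 to 10.02 on the cortex arrays and 7.67 to 8.75 on the hippocampus arrays, and those of hippocampal neurons 6.83 to 7.21 and 8.88 to 9.49. Fezf2 of the first list, and C1ql2, Wfs1, and Tdo2 of the second, overlapped between the regions.

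Across the 9 comparisons, the members differed mainly in 1 place, the 5xFAD hippocampus. There, 6 of the 9 members were at least 2-fold higher than the mean of NCSTN and MAPT, namely C3, C3ar1, C4b, C1qa, Serping1, and C1qc, and none was lower. Of all 16893 genes tested in that comparison, 7.16% were called higher and 4.03% lower. The median difference of the 9 members was 2.07 on the log2 scale, and that of all genes was -0.04. Between NCSTN and MAPT, none of 9 members was called, where 2.16% of genes were higher in NCSTN and 1.85% lower.

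In cortex no member was called. The count was 0 of 8 members tested for 17 and 22 months against 1.5 and 4 months (0.79% of all genes higher and 0.362% lower), 0 of 8 for 4 against 1.5 months (2.47% and 1.72%), and 0 of 8 for 22 against 17 months (2.05% and 2.03%). For the first of these, 175 genes were called in all, 68.6% of them higher, and the count was 371 to 496 with any 1 of the 4 arrays left out, with 30.5% higher without the 1.5-month array and 44% without the 4-month array. In the injected ICR mice, Serping1 was the single member of 7 tested that was called between Aβ and streptozotocin, and it was higher with Aβ (4.3% of all genes higher and 0.582% lower). None of 7 was called for 10 against 5 µM Aβ (1.98% and 2.57%), or for 3 against 2.5 mg/kg streptozotocin (2.81% and 1.48%). C3ar1 was the single member of 8 called for scopolamine against the 4 ventricular injections, and it was higher with scopolamine (3.11% and 0.519%). The comparisons within a set share arrays and are not independent of each other.

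**Figure D1:**
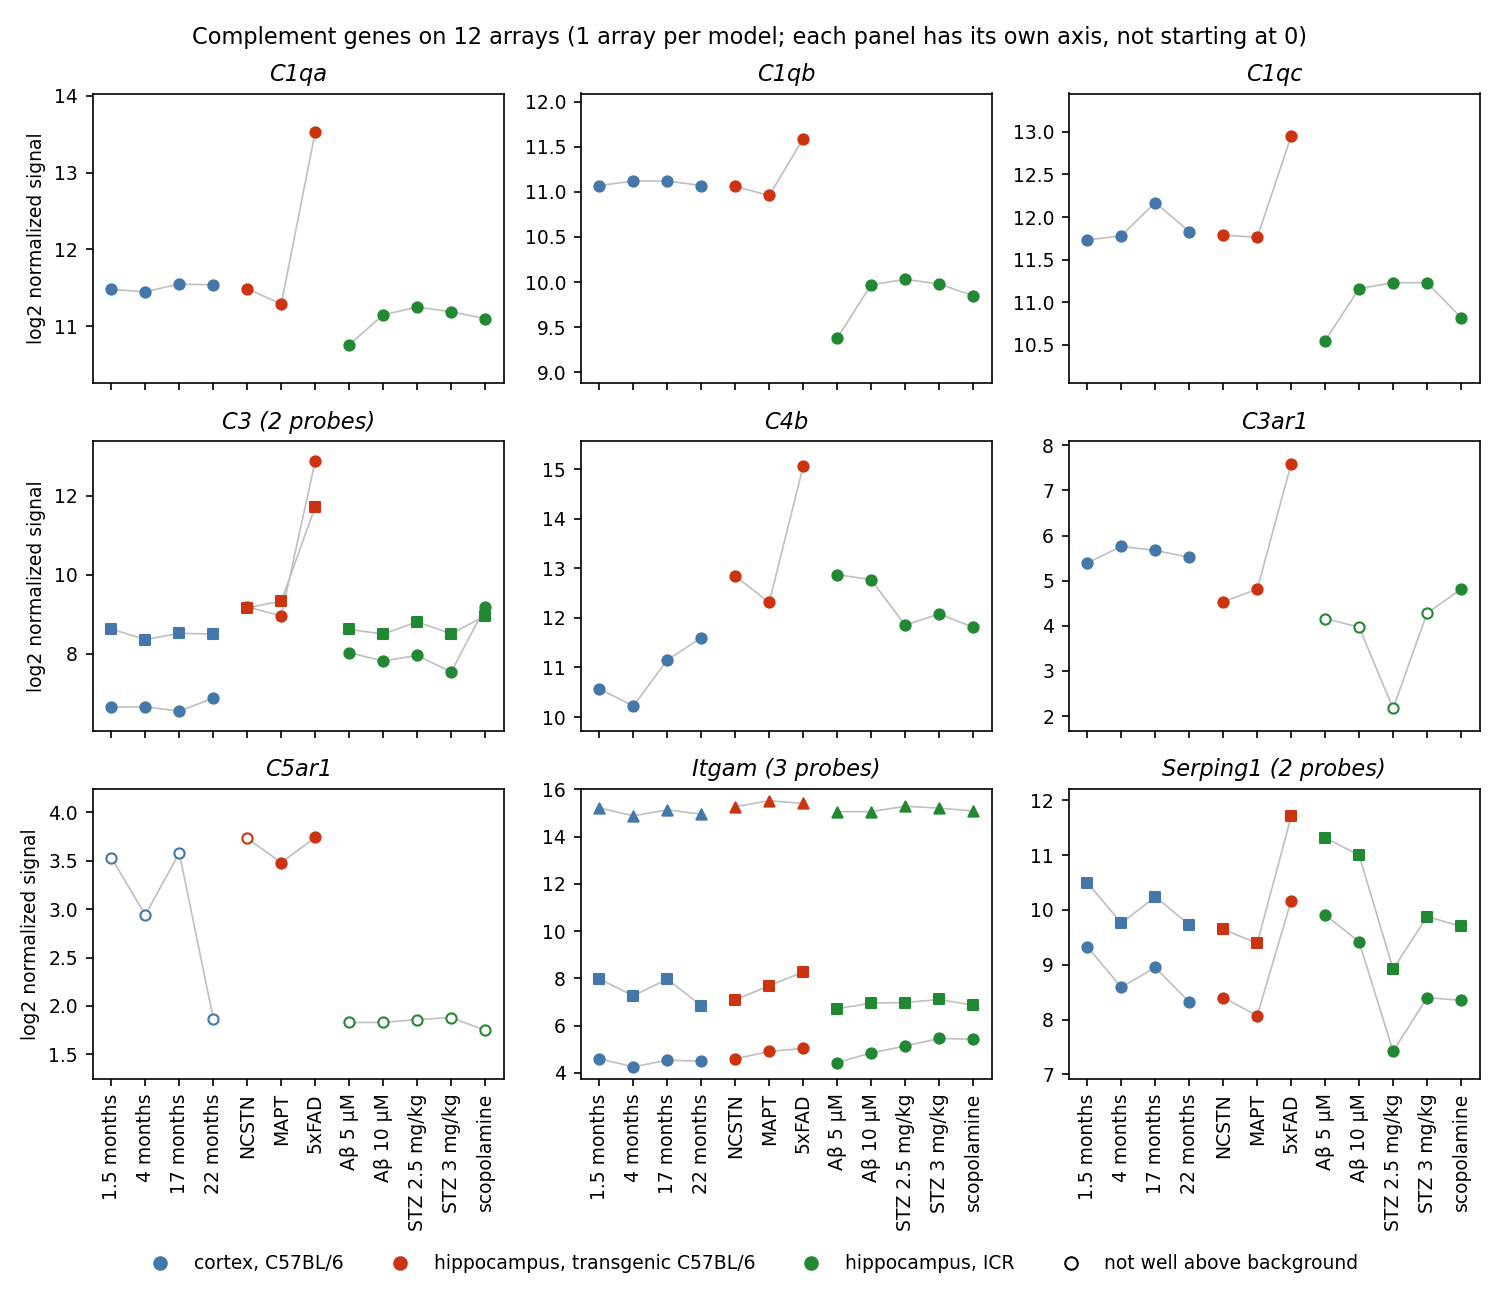
Log2 normalized signal of each probe of the 9 genes (y axis, a separate scale for each panel) on the 12 arrays (x axis), coloured by set, with a marker shape for each probe of a gene and open markers where the scanner did not mark the spot as well above background. On the 5xFAD array C3, C4b, C3ar1, and the 3 C1q chains lay above every other array, and C4b in cortex lay higher at 17 and 22 months (11.15 and 11.60) than at 1.5 and 4 months (10.57 and 10.22).

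The 3 chains of C1q are encoded side by side on mouse chromosome 4, in the order C1qb, C1qc, and C1qa. The promoters of C1qb and C1qc are shown because these neighbouring genes differed in size of response on the 5xFAD array, and that of C3 because it gave the largest difference of any member there. Each runs from 250 bases before to 50 bases after the transcription start (RefSeq, GRCm38.p6), 5′ to 3′ on the strand of the gene, which is the minus strand for all 3. C1qb lies at chr4:136886151-136886450, C1qc at chr4:136892865-136893164, and C3 at chr17:57228087-57228386. Capitals mark the core GAGGAA, or TTCCTC where it lies on the opposite strand, bound by the myeloid factor PU.1, in C1qb and C1qc, and the letters TTGCNNAA, a short form of the C/EBP site, in C3.
C1qb: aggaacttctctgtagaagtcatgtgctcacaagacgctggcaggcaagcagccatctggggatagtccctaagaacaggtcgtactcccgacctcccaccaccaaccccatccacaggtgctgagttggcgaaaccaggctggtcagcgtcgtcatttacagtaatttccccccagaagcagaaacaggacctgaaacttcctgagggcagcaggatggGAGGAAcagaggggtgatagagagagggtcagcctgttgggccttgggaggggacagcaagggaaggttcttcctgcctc
C1qc: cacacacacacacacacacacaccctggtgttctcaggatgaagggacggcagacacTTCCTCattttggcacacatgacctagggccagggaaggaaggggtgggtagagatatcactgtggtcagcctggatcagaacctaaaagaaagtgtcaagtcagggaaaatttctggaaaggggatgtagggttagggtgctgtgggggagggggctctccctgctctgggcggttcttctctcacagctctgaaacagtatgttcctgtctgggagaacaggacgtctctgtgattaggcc
C3: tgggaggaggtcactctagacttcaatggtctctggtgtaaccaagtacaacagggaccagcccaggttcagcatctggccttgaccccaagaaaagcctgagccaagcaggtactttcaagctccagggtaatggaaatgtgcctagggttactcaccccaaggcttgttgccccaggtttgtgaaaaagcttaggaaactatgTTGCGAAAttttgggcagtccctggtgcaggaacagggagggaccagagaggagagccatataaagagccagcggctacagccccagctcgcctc

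Of the 9 members, 6 had a promoter in the table (C1qb, C1qc, C3, C3ar1, C5ar1, and Itgam). Searched on both strands, GAGGAA occurred in 3 of the 6, first at -30 from the start in C1qb and at -193 in C1qc, and also in Itgam, and in 28.3% of all 32851 promoters in the table. The C/EBP letters occurred in C3 alone, at -45, and in 10.8% of all promoters. TTCNNNGAA, bound by STAT factors, occurred in none of the 6 (8.3% of all promoters), and GAAANNGAA, a core of the interferon response element, in C5ar1 alone, at -66 (8.56%). These matches describe the letters of the window and no more. In a list of 10 transcription factor genes, 4 were called higher on the 5xFAD array than on NCSTN and MAPT, and none lower. The shares among all genes were 7.16% and 4.03%. The 4 were Irf8 (by 2.32 on the log2 scale), Spi1, which encodes PU.1 (by 1.55), Rela (by 1.10), and Cebpd (by 1.02). Spi1 read 4.22 in NCSTN, 2.62 in MAPT, and 4.97 in 5xFAD mice, so 5xFAD was less than 2-fold above NCSTN. Its call rested on the dim MAPT value, and Spi1 was well above background on 6 arrays in all. The part of these factors in the complement values was not tested.

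C1qa, the A chain, had a log2 signal of 11.49 in NCSTN, 11.29 in MAPT, and 13.53 in 5xFAD mice. The 5xFAD signal was 4.41-fold above the mean of the other 2 arrays, the 190th largest increase among all genes tested. C1qc, the C chain, had a signal of 11.79, 11.76, and 12.95, a difference of 2.26-fold. C1qb, the B chain, had a signal of 11.06, 10.96, and 11.59, which is 1.50-fold and below the threshold. All 3 chains were highest in 5xFAD, and each chain was read by a single probe. C1qc and C1qb lay inside the range of the middle 95% of all genes (-1.19 to 1.60), and C1qa lay outside it.

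In cortex, the chains of C1q hardly moved with age. C1qa had a log2 signal of 11.48, 11.45, 11.55, and 11.54 at 1.5, 4, 17, and 22 months, and C1qb 11.07, 11.12, 11.12, and 11.07. C1qc had 11.73, 11.78, 12.17, and 11.83, highest at 17 months. For 17 and 22 months against 1.5 and 4 months the differences were 0.08, 0.00, and 0.25 on the log2 scale for C1qa, C1qb, and C1qc, all within the range of the middle 95% of all genes (-0.51 to 0.65). Microglial markers were flat as well, with a median difference of 0.08 over 15 genes.

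In the injected ICR mice, the 3 chains shared a pattern, lowest after 5 µM Aβ. C1qa had a log2 signal of 10.76 with 5 µM Aβ and 11.15 with 10 µM, 11.25 and 11.19 with 2.5 and 3 mg/kg streptozotocin, and 11.10 with scopolamine. C1qb had 9.38, 9.97, 10.03, 9.98, and 9.85 on the same arrays. C1qc had 10.55, 11.16, 11.23, 11.23, and 10.82. The 5 µM array was the lowest of the 5 for every chain, and the 10 µM array lay 0.39, 0.59, and 0.61 above it for C1qa, C1qb, and C1qc, which is less than 2-fold. Averaged over both doses, Aβ lay below streptozotocin by 1.20-fold for C1qa, 1.26-fold for C1qb, and 1.30-fold for C1qc. The microglial list lay below as well, with a median of -0.40 over 15 genes and a range of -0.52 to -0.10. Its part in the C1q values was not tested.

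Over all 12 arrays, after the mean of each set was subtracted, the genes whose levels ran most closely with the mean of the 3 C1q chains included Arhgap30, Lpxn, Fcer1g, and Snx20, with Pearson's r of 0.958 to 0.974 among 14025 other genes that were well above background on every array. Fcer1g encodes the signalling chain shared by Fc receptors. With the 5xFAD array left out, r was 0.899 to 0.937 for these 4 genes, which had been picked with it included. The 12 points share the normalization and come from 3 tissue sets, and the correlations are given as a description.

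C4b, which encodes the C4 protein cleaved after C1 is activated, was the member with the largest difference between old and young cortex. Its log2 signal in cortex was 10.57 at 1.5 months, 10.22 at 4 months, 11.15 at 17 months, and 11.60 at 22 months. The 2 old arrays did not overlap the 2 young ones, but the share of all genes that split this way is not given. The mean of the old arrays was 1.97-fold that of the young arrays (0.98 on the log2 scale), just under the threshold and 122nd of 15183 genes from the top. The difference was 1.21 without the 17-month array, on which the choroid plexus markers were raised, and 0.76 without the 22-month array. It was 1.15 without the 1.5-month array and 0.81 without the 4-month array. The choroid plexus list averaged 8.50 on the 17-month array and 5.59 on the 22-month array. Astrocyte and microglial markers had median differences of -0.08 and 0.08 between old and young. The part of these cells in the C4b values was not tested.

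In the transgenic hippocampus C4b had a log2 signal of 12.84 in NCSTN, 12.31 in MAPT, and 15.06 in 5xFAD mice. 5xFAD was 5.59-fold above the mean of the other 2, and above each of them by 4.65-fold and 6.72-fold. In the injected mice C4b had 12.87 and 12.77 with 5 and 10 µM Aβ, 11.85 and 12.08 with 2.5 and 3 mg/kg streptozotocin, and 11.81 with scopolamine. Both Aβ arrays lay above the other 3, 1.80-fold above streptozotocin on average, which did not pass the threshold. C4b shares nearly all of its sequence with the gene C4a, for which no probe was matched, so signal from both genes may be read by the C4b probe. The genes closest to C4b over the 12 arrays were Ddb1, Tgfbr2, Mgst2, Ptprr, and Prr14. Their r was 0.938 to 0.971, and 0.881 to 0.957 without the 5xFAD array. They were picked from the same 14025 genes with that array included. Around the mean of each set, Ddb1, Ptprr, and Prr14 ran from -0.19 to 0.30 on the log2 scale, against -1.09 to 1.66 for C4b.

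C3, the component at which all complement pathways meet, gave the largest difference of any member. Its mean log2 signal over 2 probes was 9.18 in NCSTN, 9.14 in MAPT, and 12.30 in 5xFAD mice, a difference of 8.77-fold that ranked 54th of all genes. The probe that was printed 10 times read 9.19, 8.96, and 12.88, and the other probe 9.17, 9.33, and 11.72. The probes gave the same direction and different sizes, 3.80 and 2.46 on the log2 scale. In cortex C3 did not follow age, with a mean signal of 7.64, 7.51, 7.54, and 7.69 from the youngest to the oldest.

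In the injected mice C3 was highest with scopolamine. The mean signal of its 2 probes was 8.33 and 8.16 with 5 and 10 µM Aβ, 8.38 and 8.02 with 2.5 and 3 mg/kg streptozotocin, and 9.07 with scopolamine, 1.79-fold above the mean of the other 4. The repeated probe read 9.18 with scopolamine against 7.54 to 8.03 on the other 4 arrays, a difference of 1.34 on the log2 scale. The other probe read 8.96 against 8.50 to 8.81, a difference of 0.35. The probes therefore fell on opposite sides of a 2-fold threshold, and C3 was not called.

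C3ar1, the receptor for C3a, was dim on every array but the 5xFAD one. Its log2 signal was 4.53 in NCSTN, 4.81 in MAPT, and 7.59 in 5xFAD mice, each well above background. The difference was 7.57-fold, the 70th largest increase, or 2.92 on the log2 scale, and it was 1.31 after normexp background correction. The 4 cortex arrays lay between 5.39 and 5.76, with 0.02 on the log2 scale between old and young. In the injected mice C3ar1 was well above background with scopolamine alone, at 4.81, and its spots on the other 4 arrays read 4.16, 3.97, 2.17, and 4.28. Each of those values, or the lowest signal of any probe well above background on its array where that was higher, was then taken. Against these, scopolamine was at least 1.72-fold higher. That fold is under 2, and the call was lost when the array with the lowest spot, 2.5 mg/kg streptozotocin, was left out.

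C5ar1, the receptor for C5a, was close to the floor of the assay. Its spot was well above background in MAPT (3.48 on the log2 scale) and 5xFAD (3.74), and not in NCSTN (3.73), on any cortex array (1.87 to 3.58), or on any ICR array (1.75 to 1.88). Such values have no order, and the scanner's own error for this spot reached 1.439 on the log2 scale, against 0.144 for C4b. No difference in C5ar1 could be measured in cortex or in the injected mice. C5ar2, the second C5a receptor gene and the neighbour of C5ar1 on chromosome 7, was measured on all arrays and was called in no comparison. Its log2 signal was 6.91 to 7.02 in cortex, 6.52 to 6.77 in the transgenic mice, and 4.74 to 5.37 in the injected mice.

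Itgam could not be read with confidence because its 3 probes disagreed. The brightest probe read 15.27, 15.52, and 15.41 on the log2 scale in NCSTN, MAPT, and 5xFAD mice, and was flat, with a difference of 0.01 for 5xFAD. The middle probe read 7.09, 7.70, and 8.27, a difference of 0.88. The dimmest read 4.60, 4.91, and 5.04, a difference of 0.29. The mean of the 3 gave 0.39, and no probe passed the threshold on the 5xFAD array. In cortex the middle probe read 7.98, 7.27, 7.97, and 6.85 from the youngest to the oldest, which is 1.12 lower at 22 than at 17 months, whereas the other 2 probes differed by 0.04 and 0.18. The other subunit of CR3 is the integrin β2, the product of Itgb2, and that gene was called higher in 5xFAD (9.09 against 7.61 in NCSTN and 7.76 in MAPT, 2.65-fold). Itgax, the neighbour of Itgam on chromosome 7, encodes CD11c, the α chain of the related receptor CR4. It had a log2 signal of 5.07 in NCSTN, 4.67 in MAPT, and 11.25 in 5xFAD mice, a difference of 83.1-fold.

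**Figure D2:**
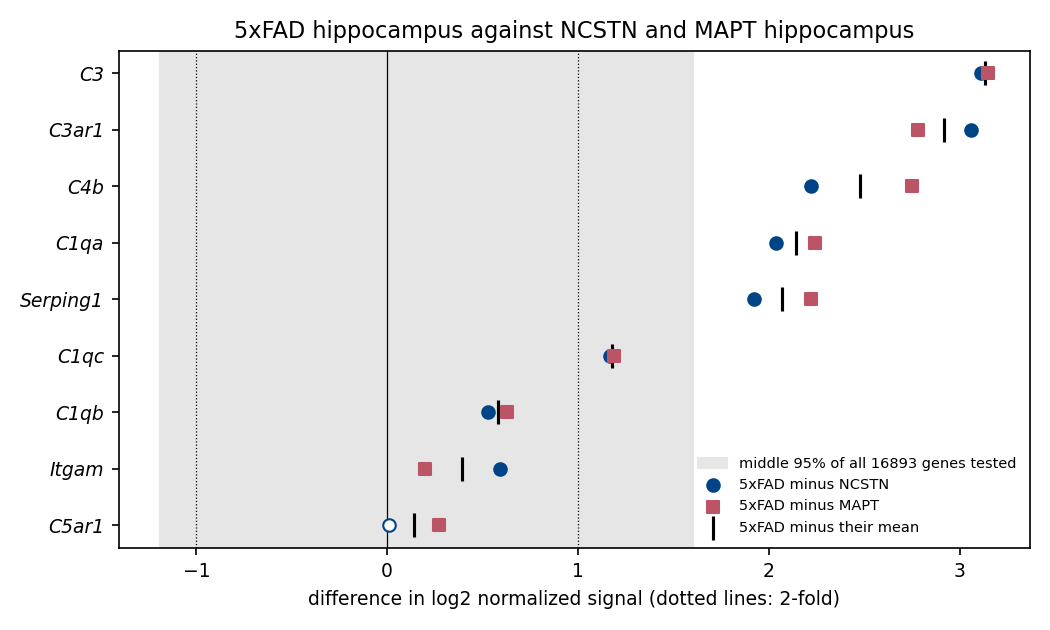
Difference in log2 normalized signal (x axis) between the 5xFAD array and the NCSTN array (circles), the MAPT array (squares), or their mean (bars) for each of the 9 members (y axis), with the middle 95% of all 16893 genes shaded and an open marker where the compared array was not well above background. For 5 members (C3, C3ar1, C4b, C1qa, and Serping1) all points lay beyond the shaded range, C1qc lay past 2-fold and inside it, and C1qb, Itgam, and C5ar1 lay under 2-fold.

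Serping1, which encodes the C1 inhibitor, varied in all 3 sets, and its 2 probes moved together. The dimmer probe read 8.40 in NCSTN, 8.07 in MAPT, and 10.17 in 5xFAD mice on the log2 scale, and the brighter 9.65, 9.39, and 11.71. Their mean was 4.19-fold higher in 5xFAD. The fibroblast list averaged 9.70, 9.51, and 9.90 on these 3 arrays, and 1 of its 10 genes was called higher. Its part in the Serping1 values was not tested.

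In the injected mice the dimmer Serping1 probe read 9.91 and 9.42 with 5 and 10 µM Aβ, 7.42 and 8.40 with 2.5 and 3 mg/kg streptozotocin, and 8.35 with scopolamine. The brighter probe read 11.32, 11.00, 8.92, 9.88, and 9.70 on the same arrays. Both Aβ arrays lay above the other 3 by either probe, and the 2.5 mg/kg streptozotocin array was the lowest. The mean was 3.39-fold higher with Aβ than with streptozotocin, 293rd of 14936 genes, and each probe gave a difference of 1.76 on the log2 scale. With each of the 4 arrays left out in turn, the difference was 1.28 to 2.25. The 3 mg/kg array was 0.97 above the 2.5 mg/kg array, just under 2-fold.

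The fibroblast list followed the same order on these arrays. Between Aβ and streptozotocin all 10 of its genes were called higher with Aβ, with a median of 2.25 on the log2 scale. With 3 against 2.5 mg/kg streptozotocin, 9 of 10 were called higher, with a median of 1.47. Of all genes, 4.3% were called higher in the first of these comparisons and 2.81% in the second. The choroid plexus list was also higher with Aβ (10 of 10, median 5.21). It averaged 11.57 and 11.92 with 5 and 10 µM Aβ and 11.73 with scopolamine. Endothelial markers had a median of 0.39 and none of 5 was called. The part of these cells in the Serping1 values was not tested.

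In cortex Serping1 also varied between arrays. The dimmer probe read 9.33, 8.59, 8.95, and 8.32 at 1.5, 4, 17, and 22 months, and the brighter 10.50, 9.76, 10.24, and 9.73. The 1.5-month array was highest and the 22-month array lowest by both probes, and the values did not fall steadily, since 17 months lay above 4 months. The fibroblast list averaged 10.34, 9.54, 10.01, and 9.40, in the same order, and its part in the values was not tested. The mean of the 2 probes was 0.74 lower at 4 than at 1.5 months and 0.56 lower at 22 than at 17 months on the log2 scale, both within the range of the middle 95% of all genes.

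**Figure D3:**
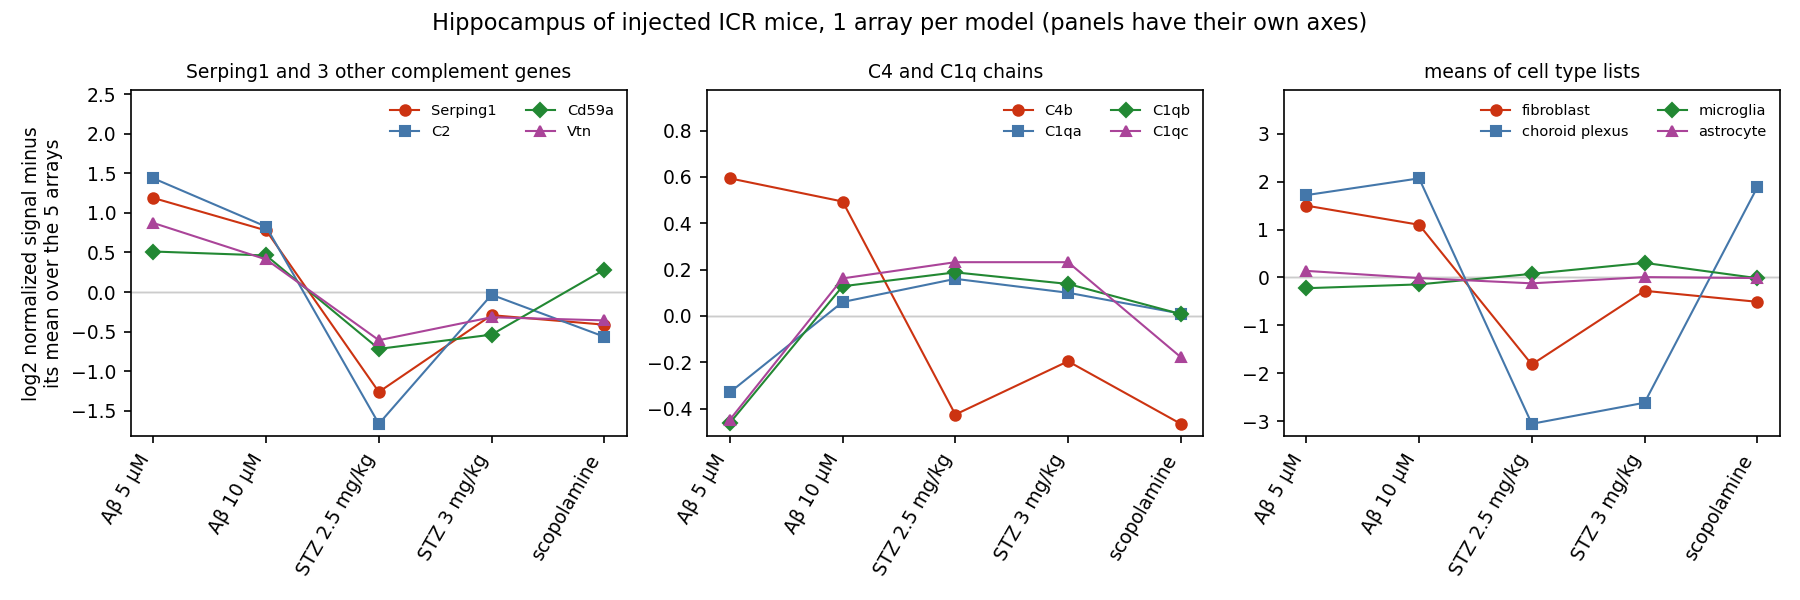
Log2 normalized signal minus its mean over the 5 ICR arrays (y axis, a separate scale for each panel) for Serping1, C2, Cd59a, and Vtn, for C4b and the C1q chains, and for the mean of 4 cell type lists, with 1 point per array (x axis; STZ, streptozotocin). Serping1 and C2 were highest on the Aβ arrays and lowest on the 2.5 mg/kg streptozotocin array, as was the fibroblast list, while the C1q chains were lowest with 5 µM Aβ.

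Other genes of the pathway were taken from a list of 44 complement genes that excludes the 9 members, of which 42 had a probe. Of these 42, 36 were well above background on 1 or more arrays, 21 on all 12, and 6 on none (Masp1, Mbl1, Cfd, C6, C8a, and C9). On the 5xFAD array 8 of 32 tested were called higher and none lower, with a median of 0.38 on the log2 scale. Of all genes, 7.16% were called higher there and 4.03% lower. The proteases that associate with C1q or resemble them were represented by C1ra (2.05-fold), C1s1 (2.24-fold), and C1rl (2.59-fold). C1ra was 1.99-fold above MAPT and C1s1 was 1.85-fold above NCSTN, both under the threshold. C1ra was not called without NCSTN or with normalization within each set, and C1s1 was not called without MAPT. Masp2, the protease of the lectin pathway, had a mean signal of 3.82 in NCSTN, 3.99 in MAPT, and 7.53 in 5xFAD mice, a difference of 12.3-fold, and its 3 probes gave 4.24, 4.30, and 2.33 on the log2 scale. The probe that gave 2.33 was well above background on 1 of the 12 arrays. It read 1.87 in NCSTN and 1.69 in MAPT, and these dim values enter the mean. Cfi, which encodes a protease that inactivates deposited C3 fragments, was not well above background in NCSTN or MAPT and was at least 22.2-fold higher in 5xFAD. The integrins were Itgb2 and Itgax, described above. Clu, which encodes clusterin and was among the brightest genes, had 16.99, 17.07, and 17.53 and was not called. With normexp background correction 5 of the list were called higher.

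Masp2 also varied across the injected mice. Its mean log2 signal was 6.08 with 5 µM Aβ and 2.52 with 10 µM, 5.38 and 4.94 with streptozotocin, and 5.94 with scopolamine. The 10 µM array was at least 8.88-fold lower than the 5 µM array. No probe of Masp2 was well above background at 10 µM, where the brightest read 3.74, against 8.77 at 5 µM. The list was otherwise divided between the doses of Aβ, with Colec10 at least 2.81-fold and Itgax at least 2.45-fold lower at 10 µM, and C8b at least 4.94-fold higher. In all, 1 of 32 tested was called higher at 10 µM and 3 lower, against 1.98% and 2.57% of all genes.

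Between Aβ and streptozotocin 8 of 29 complement genes tested were called higher with Aβ and none lower, against 4.3% and 0.582% of all genes. C2, the protease that acts with C4 fragments, had a log2 signal of 11.10 and 10.49 with Aβ, 9.63 with 3 mg/kg streptozotocin, which lay 1.63 above the 2.5 mg/kg array, and 9.10 with scopolamine. The difference between Aβ and streptozotocin was 3.96-fold. Regulators of the terminal pathway among the 8 were Cd59a (2.17-fold), Cd59b (at least 2.49-fold), and Vtn, which encodes vitronectin (2.16-fold). Also among them were C1s1 (2.32-fold, well above background on 1 of the 2 streptozotocin arrays), Cfb, the factor B gene (at least 3.67-fold), and Fcna, a ficolin gene (at least 3.49-fold). C2 and Vtn, like Serping1, were lowest on the 2.5 mg/kg streptozotocin array. The count of 8 was 4 with normexp background correction and 3 with the table of values the authors had normalized. It was 7 without 5 µM Aβ, 12 without 10 µM Aβ, 6 without 2.5 mg/kg streptozotocin, and 11 without 3 mg/kg. Genes called lower then numbered 2 (Masp2 and Itgax), 0, 2 (C8b and Itgax), and 1 (Masp2). C1s1 and Vtn were not called without 5 µM Aβ or without 2.5 mg/kg streptozotocin. The fibroblast and choroid plexus lists moved with them as given above, and their part was not tested.

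With 3 against 2.5 mg/kg streptozotocin, 5 of 27 were called higher and none lower, against 2.81% and 1.48% of all genes. The 5 were C1s1 (at least 2.08-fold), C2 (3.10-fold), Hc, the C5 gene (at least 4.57-fold), C8b (at least 5.54-fold), and Itgax (3.64-fold). With scopolamine, Masp2 (2.31-fold) and Cd59b (2.40-fold) were called higher of 29 tested, and none lower, against 3.11% and 0.519% of all genes. Of the 4 arrays compared, Masp2 was well above background on 3 and Cd59b on 2, and spots below background enter these folds as read. Neither was called with normexp background correction or the authors' normalized table, and the call was lost for Masp2 without the 10 µM Aβ array and for Cd59b without either streptozotocin array. Between NCSTN and MAPT, 3 of 32 were called, where 2.16% of all genes were higher in NCSTN and 1.85% lower. Cfb was at least 2.54-fold higher in NCSTN, and Vsig4, a C3b receptor of macrophages, at least 8.40-fold lower. The third, Cr2, was 1.06 lower in NCSTN by the mean of 2 probes, which read 5.21 against 6.68 and 5.96 against 6.61. In cortex the list gave 1 call in all, Fcna at 4 against 1.5 months (at least 3.51-fold higher, of 28 tested). Of all genes, 2.47% were called higher there and 1.72% lower. None of 28 was called for old against young arrays (0.79% and 0.362% of all genes) or for 22 against 17 months (2.05% and 2.03%).

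**Figure D4:**
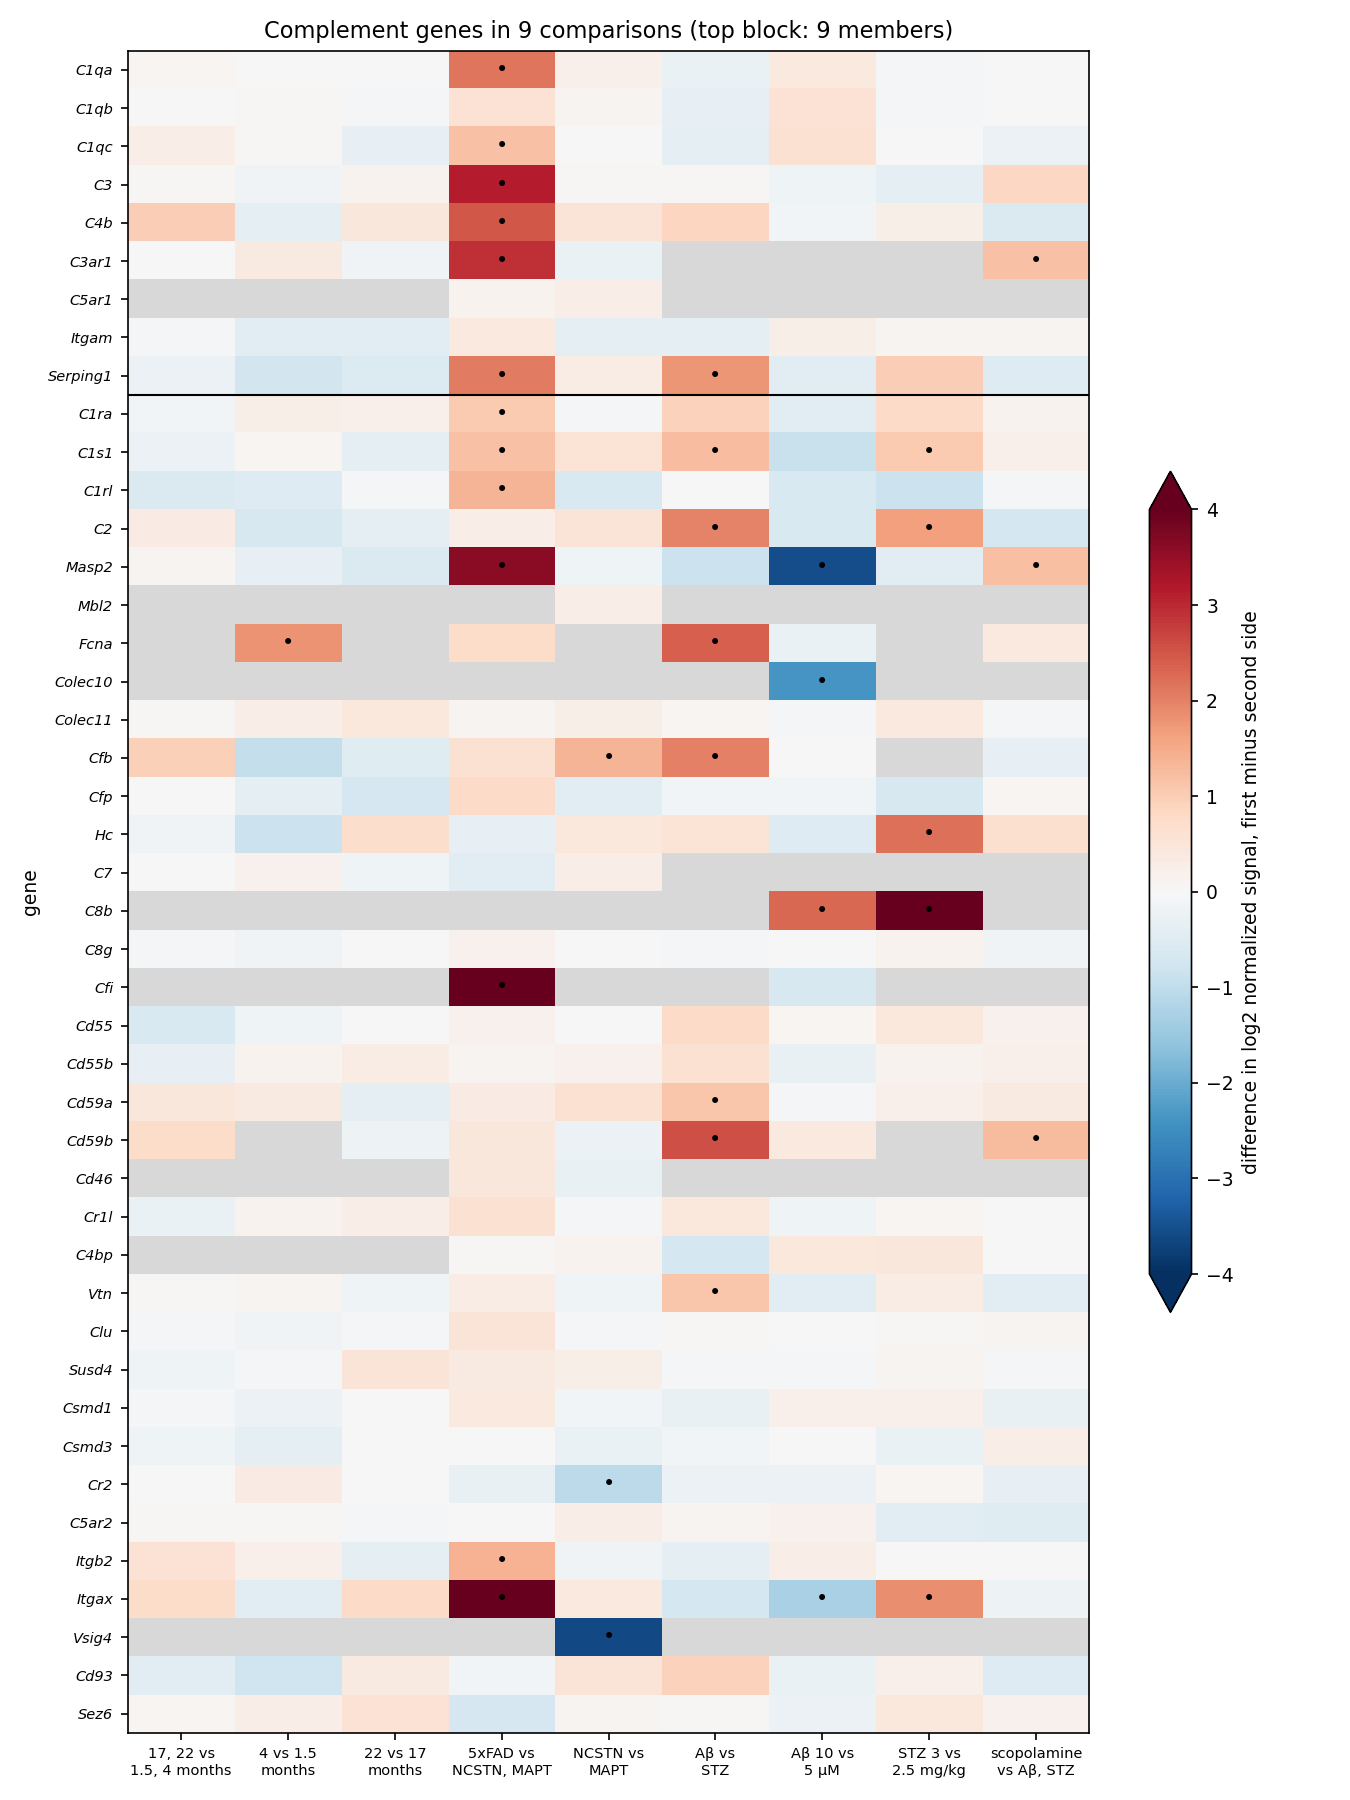
Difference in log2 normalized signal, first minus second side (colour), for the 9 members (above the line) and other complement genes that were well above background on at least 1 array (rows) in the 9 comparisons (columns). Dots mark differences of at least 2-fold whose brighter side was well above background, and grey marks genes not well above background on all arrays of either side. The 5xFAD column holds 6 dots among the members, and the columns of age hold none among the members.

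The cell type lists were read beside the 5xFAD calls, where 7.16% of all genes were called higher and 4.03% lower. Of 15 microglial genes measured, 10 were called higher and 1 lower, with a median difference of 1.31 on the log2 scale. Trem2, a lipid receptor of microglia, was 9.48-fold higher, Tyrobp, its signalling partner, 6.75-fold, and Ctss, a lysosomal protease, 5.66-fold. Siglech was the 1 gene called lower, with a difference of -2.14, and P2ry12 had a log2 signal of 10.65 in 5xFAD mice against 10.17 and 10.19. Of 8 astrocyte genes 3 were called higher (Gfap, 3.47-fold, Vim, 2.53-fold, and Aqp4, 2.28-fold), with a median of 0.65. The microglial list averaged 12.28 on the 5xFAD array against 11.05 and 11.06, and the astrocyte list 13.56 against 12.90 and 12.68. Of 5 neutrophil and monocyte genes tested, 1 was called higher (Lyz2) and 2 lower. All 6 cortical neuron markers were lower, with a median of -0.81 and 1 called, and the 6 hippocampal neuron markers had a median of -0.50 with none called. The choroid plexus list had a median of 0.65 with 1 of 10 called higher, and 1 of 5 endothelial genes was called lower, at -1.02. The part of a change in cell composition in the complement values was not tested. C3 (3.13), C3ar1 (2.92), C4b (2.48), C1qa (2.14), and Serping1 (2.07) lay above the median of the microglial and of the astrocyte list. C1qc (1.18) lay between the medians, and C1qb (0.58), Itgam (0.39), and C5ar1 (0.14) lay below both. Every member lay inside the range of the microglial list, -2.14 to 3.24, which Siglech and Trem2 make wide.

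The 3 sets can be laid side by side as levels, although region, strain, age, and the sex-linked genes differ between them. How many of all genes separate the sets by level is not given. C4b was lowest in cortex (10.22 to 11.60 on the log2 scale) and did not overlap the hippocampus sets, which ran from 11.81 to 12.87 in the injected mice and from 12.31 to 15.06 in the transgenic mice. C3 was also lowest in cortex, with a mean of 7.51 to 7.69, against 8.02 to 9.07 in the injected and 9.14 to 12.30 in the transgenic mice. Its 10-spot probe kept cortex and injected mice apart (6.55 to 6.88 and 7.54 to 9.18), whereas its other probe overlapped (8.36 to 8.63 and 8.50 to 8.96). C1qb was lowest in the injected ICR mice (9.38 to 10.03), below cortex (11.07 to 11.12) and the transgenic mice (10.96 to 11.59). C1qa was lowest there too, with 10.76 to 11.25 in the injected mice and 11.29 or more elsewhere. C4bp, a regulator that binds C4b, was not well above background on any cortex array (1.88 to 1.95) and was measured on all 8 hippocampus arrays (5.49 to 6.64).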

How the data were processed

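Gene expression was measured with Agilent whole-genome 44K mouse arrays. The authors purified RNA from each region, pooled it from 3 animals per array, and scanned the arrays. They deposited the intensity of each spot as the scanner software gave it (processed signal, foreground and background medians, flags), not normalized between arrays, and a table of intensity values on a linear scale that they had filtered and quantile normalized. In that table the 5xFAD column and the ICR columns each have a distribution unlike that of the other 6, so it served as an alternative only. No column of that table belongs to another series.

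From the deposited intensities, control spots were left out. Spots marked as outliers (110 to 234 per array) were left out where the probe had another spot that was not marked. A probe whose every spot was marked, such as a probe printed once, kept its spots. Log2 of the processed signal was quantile normalized over 39429 probes and 12 arrays, with no filter on dim probes, and probes of a gene were averaged. The filter of the methods (1.4-fold over local background) was an alternative that all 13 member probes passed. Accessions were matched without versions to RefSeq symbols of GRCm38.p6, which named 69.8% of probes. Between 63.6% and 75.9% of probes were well above background, and no spot was saturated. Precision is limited by how few arrays there are. A fold given as "at least" sets the brighter side against the higher of 2 values on each array of the dimmer side. They are the gene's own mean signal and the lowest signal of any probe well above background. The latter is not the detection limit of the gene itself, so such folds are not strict lower bounds. With 3 mg/kg streptozotocin it was 3.34, and C3ar1 read 4.28 there without being well above background.

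Groups came from the labels. Comparisons were log2 differences with no test, called at 2-fold. Named genes were the 9 members, each other complement gene called in a comparison, the 5 genes most correlated with the C1q mean and with C4b, and members of the cell type lists, except that some genes the rule names are counted but not reported here by name; Clu, C5ar2, C4bp, Xist, Ddx3y, and Eif2s3y were named for context, the probe values of Masp2 and Cr2 after they were seen. The members and lists were chosen with earlier results of these data known. The alternatives were scaling to the 75th percentile, normexp background correction (offset 50, on the median foreground, since a mean foreground is not among the columns used), the deposited table, the 1.4-fold filter, the brightest probe per gene, thresholds of 1.5 and 3-fold, calls without the background flag, each array left out, and, added after the data had been seen, normalization within each set. The calling was tested on simulated data. Python 3.11.15 (numpy 2.4.6, pandas 2.3.3), R 4.3.3, and limma 3.58.1 were used.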

Additional observations from a re-analysis of the deposited data

How the results depend on the processing

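No paired analysis was possible because each model had 1 array and the labels give no replicate numbers that groups share. Of 853 differences of single members under the alternatives, 840 moved by no more than 1.5-fold, 13 moved further, and 0 called ones changed sign. The 840 include 81 for each other threshold and 81 for calls without the background flag. Those settings change calls only, so these differences could not move. Nor could the brightest probe per gene move the 6 members with 1 probe. For 5xFAD the count of members called stayed at 6 under every alternative except 3-fold (5, without C1qc). C3ar1 there was 1.31 on the log2 scale with normexp, and C3 was 2.46 by its brightest probe. With a 1.5-fold threshold the counts became 1 for old against young cortex (C4b), 1 for 4 against 1.5 months (Serping1, lower), 2 for Aβ against streptozotocin, 2 for 10 against 5 µM Aβ (C1qb and C1qc), 1 for 3 against 2.5 mg/kg streptozotocin (Serping1), and 2 for scopolamine. For old against young cortex the count ran from 0 to 1 with 1 array left out, and C4b was called without the 17-month or the 1.5-month array. Without the background flag it was 1 for 22 against 17 months (C5ar1, lower) and 1 for 3 against 2.5 mg/kg streptozotocin (C3ar1). For scopolamine it was 0 with normexp, 0 with the deposited table, 0 at 3-fold, and 0 to 1 with 1 array left out (0 without 2.5 mg/kg streptozotocin). The cause was not tested.

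Over all genes, normexp called 16 to 612 genes per comparison, against 175 to 1890. With the deposited table the median of all genes was -0.20 for Aβ against streptozotocin, -0.13 for 10 against 5 µM Aβ, -0.11 for 3 against 2.5 mg/kg streptozotocin, and -0.22 for scopolamine, against -0.04 to 0.02, and 361, 293, 279, and 243 genes were called, against 729, 717, 652, and 559. The share of all calls that were higher was 79.0% with the deposited table against 64.0% for 5xFAD, 54.3% against 85.7% for scopolamine, and, with 75th percentile scaling, 35.4% against 53.9% for NCSTN against MAPT. Leaving out 1 array changed that share most for old against young cortex (68.6% to 30.5% without 1.5 months). Dim genes such as C3ar1 and C5ar1 are limited most by signal over background.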
